A study of Danio rerio with 18 samples.

Results

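In whole zebrafish embryos, 46 of 58549 measured transcript IDs were lowered by added all-trans retinoic acid (atRA) at 80% epiboly and lay near the control level at 12 somites and at 24 hours post fertilisation (24 hpf). In control embryos 41 of them also fell between 80% epiboly and 12 somites, as did 39.9% of all transcripts tested and 50.7% of those present at the first stage. The fall was not particular to the 46. Of 70 other transcripts lowered as far by atRA at 80% epiboly, but not near control later, 61 fell too. Of the 46, 24 fell and then rose again by 24 hpf, against 6.28% of all transcripts tested at both steps. Counting members with near-identical counts once gave 19 of 39. IDs whose counts keep a steady ratio were not joined, so the 19 may hold some profiles more than once. At the second step alone, 27 of 41 members tested rose, and 26 of 68 tested among the 70 others. The background was 32.3% of all transcripts tested and 20.5% of those present at 80% epiboly. How many of the 70 others fell and then rose was not counted, so that pattern is not shown to be particular to the 46. With a log2 change of at least 1 at each step, 14 of the 46 fell and rose, and the share of all transcripts at that limit was not computed. The 46 were chosen on measured values. CPM is a transcript's count per 1000000 transcript counts of its library, and d is the log2 ratio of the atRA mean to the control mean after adding 0.5 CPM to each. Members had a d of -1 or less at 80% epiboly and an absolute d under 0.5 at both later stages. The differences between atRA and control below therefore describe the choice and are no evidence for it. For 13 of the 46, both group means at a later stage were so low that the limit was met whatever the ratio. At 12 somites 20 of the 42 members tested were still called different, against 36.1% of all transcripts tested. With TMM library sizes the rule gave 93 members.

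Wild-type embryos (Danio rerio) were exposed to 0.1 µM atRA or to the solvent DMSO, the control. Exposure ran from 30% epiboly for embryos taken at 80% epiboly, and from 80% epiboly for those taken at 12 somites or 24 hpf. The 6 groups held 3 replicate libraries each, made from total RNA of whole embryos. A difference between the first stage and the later ones is thus also a difference in when exposure began, and these cannot be told apart. In whole embryos, fewer cells of a type and less RNA per cell cannot be told apart either. Nothing in the labels says that replicates came from separate clutches, so p-values measure the spread between these libraries, which may be technical.

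Retinoic acid is made from vitamin A and binds nuclear receptors that sit on DNA and switch target genes. In the vertebrate embryo it patterns the hindbrain and trunk, and enzymes of the Cyp26 family clear it from the head and the tail bud. At 80% epiboly the embryo is still gastrulating: the cell sheet is spreading over the yolk and the body axis is being laid out. By 12 somites the first body segments and the brain regions have formed, and at 24 hpf the basic body plan is present while organs are still forming.

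The deposited files list transcript IDs without gene names, and 0 of the IDs matched the name tables used here. No role can therefore be given to any member, the 8 gene lists (163 genes) chosen for this tissue could not be applied, and no sequence is shown. The embryo stage could not be checked against marker genes for the same reason. Members are referred to by their rank in d at 80% epiboly, with rank 1 the lowest, and 4 are named by ID under a fixed rule. CPM is not adjusted for transcript length, so levels are compared within a transcript and not between transcripts.

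Summed transcript counts ran from 38673189 to 115511468 per library, and 1 CPM was thus worth 38.7 to 116 counts. Depth did not overlap between atRA and control at 12 somites or at 24 hpf, where atRA libraries were shallower, and its part in the differences was not tested. The labels name no batches. Some members shared reads. In 6 sets with 13 members, each member was linked to another whose counts agreed within 10% plus 3 counts in all 18 libraries. Members linked only through another member need not agree that closely with each other. Counting each set as 1 leaves 39 distinct profiles, against 40 within 5% and 37 within 20%. IDs whose counts keep a steady ratio may stay unjoined, so the profiles need not be separate genes. Within 1 of the sets, the rank 18 and 19 IDs had mean control levels of 119.56 and 119.57 CPM at 80% epiboly.

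At 80% epiboly the members' mean control levels ran from 0.882 to 119.6 CPM with a median of 4.53 CPM, and the atRA levels from 0.191 to 49 CPM with a median of 1.65 CPM. The control mean was 2.08 to 8.83 times the atRA mean, with a median of 2.89. The 3 atRA libraries lay below the 3 control libraries in 46 of 46 members, against 14.0% of 42160 transcripts with at least 180 counts in all. All 46 were called lower with an adjusted p of at most 0.000416 (edgeR, quasi-likelihood F test, Benjamini-Hochberg over all transcripts tested), against 13.7% of the 38203 transcripts tested. The rule chose on this contrast, so nothing is read from either share. The rule's d had a median of -1.20 over the members, and edgeR's log2 fold change a median of -1.58. The 0.5 CPM added in the rule pulls the ratio of a low transcript toward 0. Of the 46, 8 had a d of -1.5 or less.

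**Figure D1:**
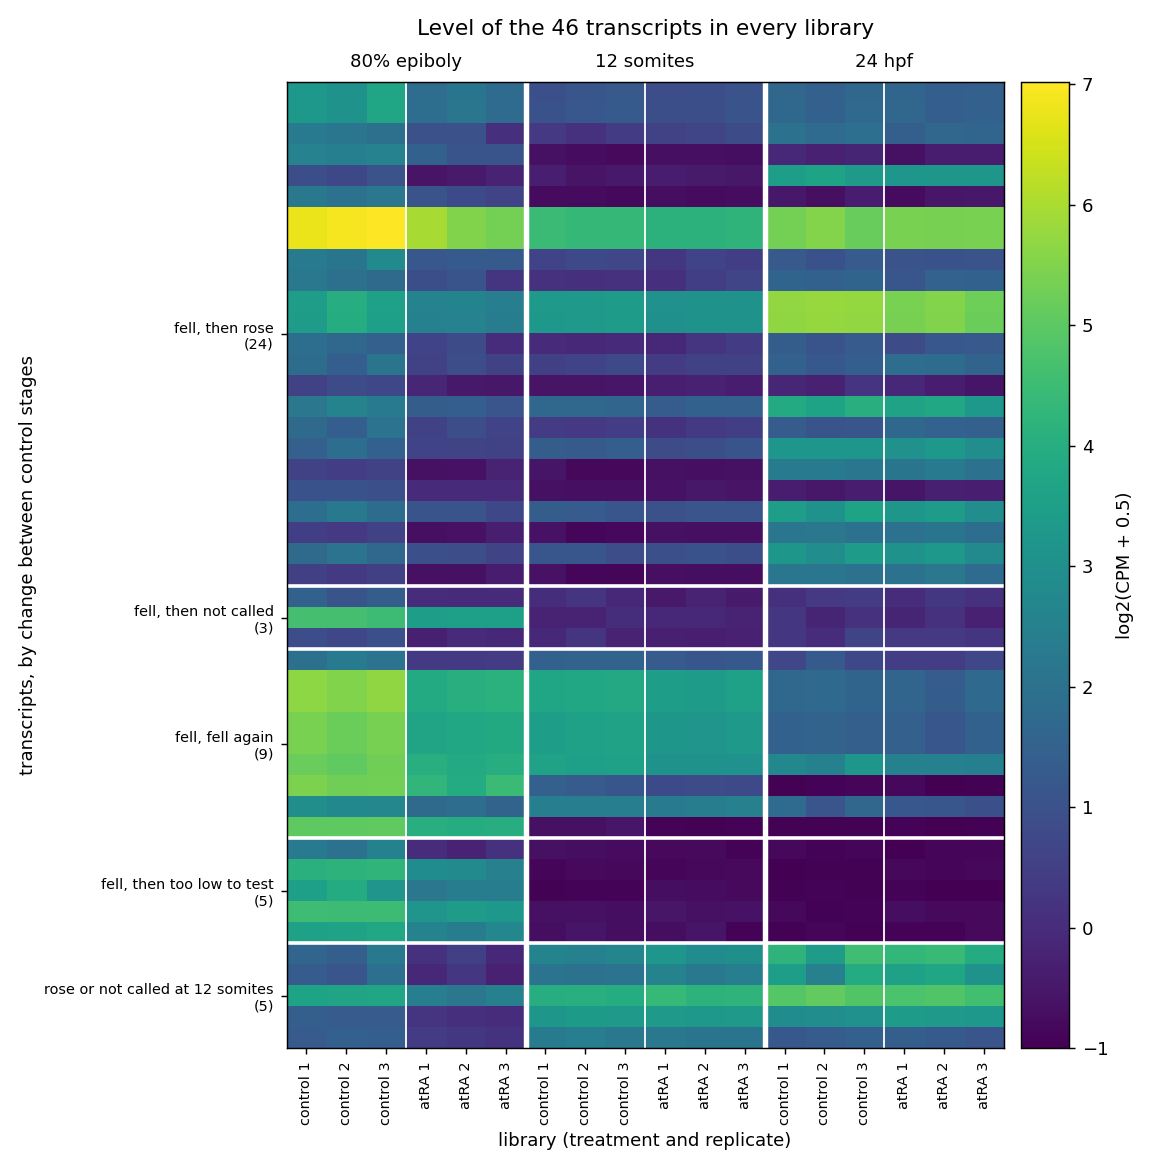
Level of each of the 46 transcripts (rows) in each of the 18 libraries (columns), as log2(CPM + 0.5) by colour, with rows grouped by the change between control stages. The atRA columns of 80% epiboly are darker than the control columns beside them in all 46 rows, and the largest block holds 24 transcripts that fell at 12 somites and rose at 24 hpf.

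The member with the lowest d, ENSDART00000076711.6 (rank 1), stood furthest below control with atRA at 80% epiboly. Its control libraries held 4.44, 3.56 and 5.26 CPM and its atRA libraries 0.524, 0.37 and 0.609 CPM. All 3 control libraries lay well above all 3 atRA libraries. At 12 somites the control libraries held 0.137, 0.114 and 0.0909 CPM and the atRA libraries 0.0771, 0.0697 and 0.0234 CPM, from 2 to 12 counts per library. These groups did not overlap, but both were too low to be tested. At 24 hpf no library held more than 5 counts. Its d near 0 at the later stages is therefore that of a transcript close to absent in both groups.

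ENSDART00000146813.1 (rank 19) had the most counts of the members at 80% epiboly. Control libraries stood at 109.9, 119.6 and 129.2 CPM and atRA libraries at 62.8, 44.4 and 39.9 CPM. The groups were far apart, and the atRA replicates spread more than the controls. At 12 somites the control libraries stood at 21.5, 19.9 and 20.0 CPM and the atRA libraries at 17.4, 17.3 and 18 CPM. The atRA libraries were again all lower, and edgeR gave a log2 change of -0.20 with SE 0.05 and adjusted p = 0.00485. At 24 hpf the control libraries stood at 40.1, 46 and 35.1 CPM and the atRA libraries at 42.2, 40.5 and 42.3 CPM, and the groups overlapped.

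ENSDART00000080808.4 (rank 21) was 1 of the 3 members that rose from 80% epiboly to 12 somites in controls. At 80% epiboly its control libraries held 2.18, 1.98 and 1.99 CPM and its atRA libraries 0.691, 0.559 and 0.522 CPM, without overlap. At 12 somites the values were 9.07, 9.82 and 9.39 CPM in controls and 9.59, 9.09 and 9.31 CPM with atRA, which overlapped. At 24 hpf the controls held 6.97, 7.21 and 7.82 CPM and the atRA libraries 10.2, 9.62 and 9.17 CPM, so the atRA libraries were now all higher. The edgeR log2 change at 24 hpf was 0.49 with SE 0.12 and adjusted p = 0.0464, the opposite direction to 80% epiboly. This call was lost when any 1 of 5 of the 6 libraries of that stage was left out.

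ENSDART00000126676.1 (rank 32) peaked at 12 somites. Control libraries held 1.96, 2.23 and 2.14 CPM at 80% epiboly and atRA libraries 0.802, 0.721 and 0.621 CPM, without overlap. At 12 somites the controls held 4.6, 4.91 and 4.11 CPM and the atRA libraries 4.1, 3.7 and 3.75 CPM, all slightly lower. That difference was not called (edgeR, -0.22 on the log2 scale, SE 0.089, adjusted p = 0.062). At 24 hpf the controls held 1.79, 2.01 and 2.24 CPM and the atRA libraries 2.17, 1.94 and 1.68 CPM, with overlap.

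**Figure D2:**
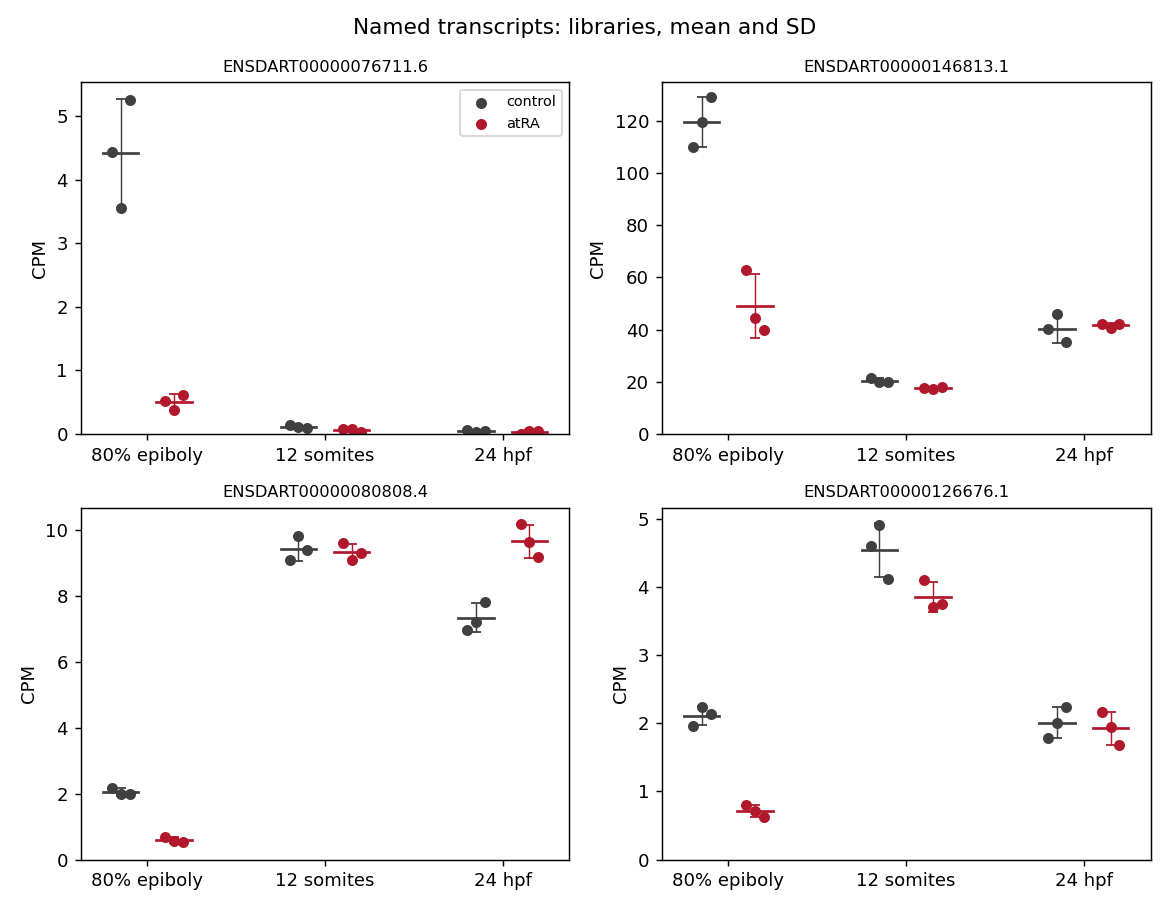
CPM of the 4 transcripts named by ID in each library, by stage, with controls in grey and atRA in red; bars are means and error bars the SD over 3 libraries. At 80% epiboly the atRA points lie below the control points in all 4 panels, and at 24 hpf only ENSDART00000080808.4 shows separated groups, with atRA higher.

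The condition of little difference at the later stages was met in 2 ways. For 12 members at 12 somites and 8 at 24 hpf, both group means were under 0.207 CPM, a level at which the rule's limit is met whatever the ratio. For 7 members this held at both stages, and for 13 at either. The limit says little about atRA in these. Over the 46, d ran from -0.49 to 0.42 at 12 somites, with 30 below 0 and a median of -0.11. At 24 hpf it ran from -0.45 to 0.38, with 34 below 0 and a median of -0.11. Over all transcripts with at least 180 counts the median d was -0.019 at 12 somites and -0.071 at 24 hpf. The share of all transcripts below 0 was not computed, so nothing is read from these counts. A mean of at least 1 CPM in each group of both later stages was reached by 21 of the 46.

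The rank 39 member shows what the limit can hide. At 80% epiboly its control libraries held 31.9, 31.9 and 33.0 CPM and its atRA libraries 16.2, 15.1 and 15.4 CPM. At 12 somites its control libraries held 12, 13 and 18 counts and its atRA libraries 2, 1 and 2 counts. Its d at 12 somites was -0.35, inside the limit, but all atRA libraries were lower and edgeR called it (adjusted p = 0.000137). It was the 1 member whose atRA effect was called more negative at 12 somites than at 80% epiboly (adjusted p = 0.0068, edgeR). That call was lost without atRA replicate 2 of 12 somites (adjusted p = 0.056).

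Differences remained at the later stages, within the limits that the rule set on d. Of the 46, 42 had enough counts to be tested at 12 somites, and edgeR called 20: 14 lower and 6 higher with atRA. The background was 36.1% of 41090 transcripts in both directions, 18.5% lower and 17.7% higher. Called falls had a median log2 fold change of -0.30 and ran from -2.92 to -0.20. The largest was that of rank 39, at 1 to 18 counts per library. Called rises lay between 0.29 and 0.73. At 24 hpf, 39 were tested and 1 was called, the rise of ENSDART00000080808.4, against 9.60% of 41404 transcripts in both directions and 4.09% higher. At an unadjusted p under 0.05 there were 4, and the share of all transcripts at that level was not computed. At 24 hpf the common coefficient of variation between replicates was 0.202, against 0.049 at 12 somites, so small differences were harder to call there. These contrasts also entered the rule, and nothing is read from the shares.

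Small differences at 12 somites went both ways and could be seen in single libraries. The rank 25 member, with the d furthest below 0 at this stage, held 11.8, 11.1 and 11.6 CPM in controls and 8.26, 7.99 and 7.84 CPM with atRA. These groups lay clearly apart (edgeR, -0.50 on the log2 scale, adjusted p = 2.8e-06). The rank 14 member went the other way. At 80% epiboly it held 12.2, 12.5 and 13.0 CPM in controls and 4.87, 4.08 and 5.12 CPM with atRA. At 12 somites its controls held 15.3, 15.9 and 15.1 CPM and its atRA libraries 20.4, 17.8 and 18 CPM, all higher (edgeR, 0.29 on the log2 scale, adjusted p = 0.001). Over the 46, the 12 somites groups did not overlap in 19 members with atRA lower and 8 with atRA higher. The background was 25.6% and 20.5% of transcripts. At 24 hpf this held for 6 lower and 5 higher, with a background of 20.4% and 11.8%.

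The size of the atRA effect was also set against itself across stages, with an interaction term in edgeR. From 80% epiboly to 12 somites it differed for 45 of 46 members, against 27.8% of 42956 transcripts. It was more positive at 12 somites for 44, against 12.3%, and more negative for 1, against 15.6%. From 80% epiboly to 24 hpf it differed for 40 of 46, against 13.3% of 44466, and all 40 were more positive at 24 hpf, against 6.28%. Both contrasts were used in the choice, so the counts only describe the members.

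**Figure D3:**
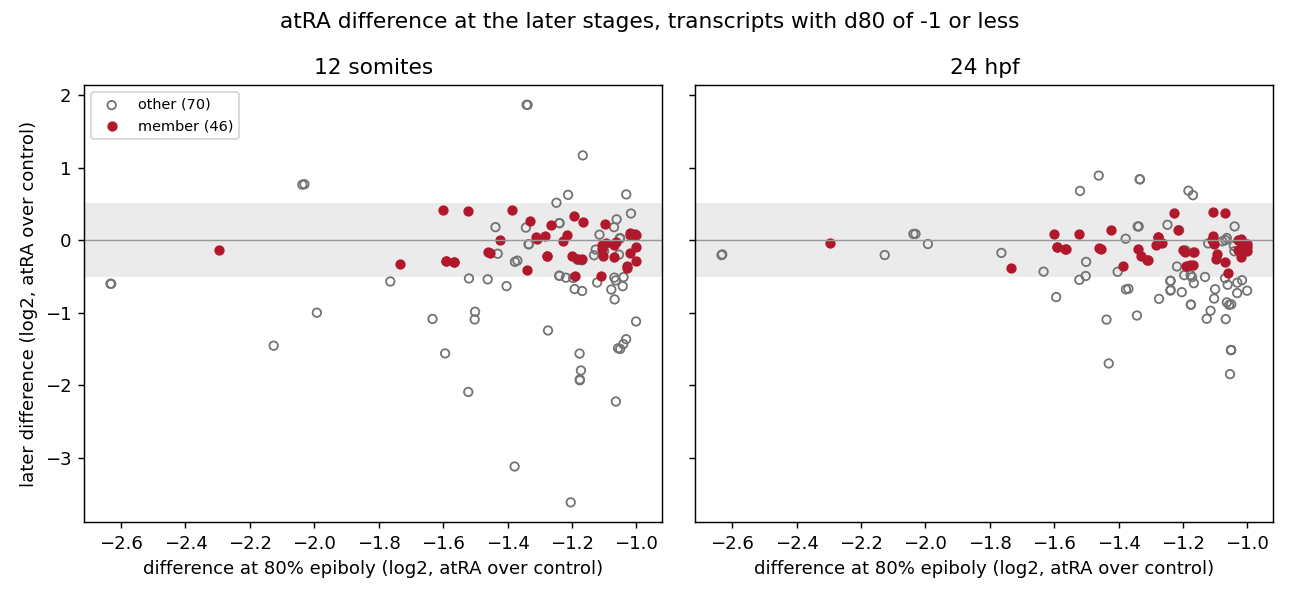
Log2 difference between atRA and control at 12 somites (left) and 24 hpf (right) against that at 80% epiboly, for the 116 transcripts with a d of -1 or less at 80% epiboly; the grey band is the limit of 0.5. The 46 members lie inside both bands by the rule, and of the 70 others most lie below a band rather than above it.

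A d of -1 or less at 80% epiboly was found for 116 transcripts, or 0.395% of the 29354 with a control mean of at least 0.5 CPM there, which the rule requires. A d of 1 or more was found for 638, or 2.09% of the 30578 that reached 0.5 CPM in either group. These counts depend on the scaling: TMM library sizes gave 169 lower and 599 higher, and DESeq2 size factors 171 and 578. The 70 that were not members broke the later limit at 12 somites alone in 28 cases, at 24 hpf alone in 25 and at both in 17. At 12 somites 37 of the 70 were lower by 0.5 or more and 8 higher, and at 24 hpf 36 were lower and 6 higher. Edges of the rule were close: the last member inside had a d of -1.0006 and the first transcript outside -0.9986. At 12 somites the member nearest the limit had a d of -0.49 and the nearest outside -0.51. At 24 hpf these were -0.45 and -0.51.

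The rule held no condition on the change between control stages, but it was not free of it. The same control libraries entered it, a member had to be present in the 80% epiboly controls, and a transcript close to absent later met the later limits whatever its ratio. The share of calls among transcripts with at least 0.5 CPM in the 80% epiboly controls is therefore given beside that of all transcripts, and then the share among those that also met both later limits. From 80% epiboly to 12 somites, edgeR called 44 of 46 members in controls, against 84.2% of all transcripts tested and 85.4% of those with at least 0.5 CPM. Of these, 41 were lower and 3 higher. Over all 41505 transcripts tested, 39.9% were called lower and 44.3% higher, and 50.7% and 34.7% over those with at least 0.5 CPM. A fall of at least 1 on the log2 scale was called for 36 of 46, against 18.7% of all and 21.7% of those present. Among transcripts present at 80% epiboly and within both later limits, 52.3% were called lower. The 13 members under 0.207 CPM in both groups of a later stage were all called lower. Nothing is read from that, since a transcript present at 80% epiboly and close to absent later has mostly fallen. Of transcripts present and within both later limits, 12509 of 23904 were called lower, and 11798 of 23176 without the low ones. Of the other 33 members, 28 were called lower, against 50.9% of such transcripts without the low ones. The median log2 fold change of the members was -2.59, and of all transcripts 0.08. These changes use TMM scaling and the CPM do not, so changes and CPM levels need not match between these stages. With raw library sums the median of all transcripts was 0.40.

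From 12 somites to 24 hpf, 38 of the 46 were called in controls, against 59.0% of all transcripts tested and 54.6% of those with at least 0.5 CPM at 80% epiboly. Of these, 27 rose and 11 fell, and 5 of the 46 were too low to be tested. The background was 32.3% higher and 26.7% lower of 43030 transcripts, and 20.5% and 34.1% of those with at least 0.5 CPM at 80% epiboly. With both later limits met as well, 17.3% were higher. The 12 somites stage was the lowest of the 3 control stages for 27 of 46 members, against 14.1% of transcripts with at least 0.5 CPM at 80% epiboly. The 80% epiboly stage was the highest for 31, against 40.2%.

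Put together, 24 of 46 members were called lower at 12 somites and higher again at 24 hpf. Of the 40302 transcripts tested in both, 6.28% did so, and 7.29% of those with at least 0.5 CPM at 80% epiboly. The share was 6.13% with both later limits met as well. Without members low at a later stage the count was 18 of 33, against 5.81%. Counting 1 member per set that agreed within 10% plus 3 counts gave 19 of 39, and wider limits were not run. Ranks 12, 24 and 28 rose and fell together between replicates but stayed unjoined, so the 19 may hold some profiles more than once. Requiring a log2 change of at least 1 each way left 14 of the 46, and the share of all transcripts at that limit was not computed. The 24 had median control levels of 3.49 CPM at 80% epiboly, 0.94 CPM at 12 somites and 3.53 CPM at 24 hpf. With atRA the medians were 1.26, 0.913 and 3.19 CPM. In 10 of the 24 the 24 hpf control mean was above that of 80% epiboly. These 10 included ranks 26 and 27, and ranks 40, 43 and 46, which share reads.

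The steepest return was in the rank 16 member. Control libraries held 1.42, 1.19 and 1.56 CPM at 80% epiboly, 0.296, 0.171 and 0.239 CPM at 12 somites, and 10.6, 12.2 and 9.68 CPM at 24 hpf. Each stage lay apart from the next, by -2.88 on the log2 scale (edgeR, SE 0.22, adjusted p = 2.97e-08) and then by 5.52 (edgeR, SE 0.25, adjusted p = 4.15e-06). With atRA it held 0.167, 0.247 and 0.373 CPM at 80% epiboly, a level like that of 12 somites. The members of ranks 40, 43 and 46, which fell in a set sharing reads, had the same shape. The rank 40 libraries held 0.996, 0.871 and 1.00 CPM, then 0.182, 0.0685 and 0.0682 CPM, then 4.37, 4.47 and 3.95 CPM in controls. The 12 somites values rest on 6 to 16 counts per library.

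ENSDART00000146813.1 had the same shape at a high count. Its control level changed by -2.87 on the log2 scale at 12 somites with TMM scaling (edgeR, SE 0.07, adjusted p = 2.13e-13), and by -2.55 with raw library sums. It then rose by 0.99 (edgeR, SE 0.16, adjusted p = 0.0014). Its 24 hpf level of 40.4 ± 5.48 CPM (SD, n = 3) remained below the 119.6 ± 9.67 CPM of 80% epiboly. The rank 26 and 27 members, which share reads, changed by -0.70 and -0.66 on the log2 scale at 12 somites (edgeR) and ended far higher. The rank 26 control means were 12.7, 9.71 and 53 CPM at the 3 stages.

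Other members went on falling after 80% epiboly. Of the 46, 9 fell at both steps, against 15.6% of all transcripts tested in both and 22.7% of those present at 80% epiboly and within both later limits. A further 5 fell at 12 somites to levels too low to be tested after that. The 9 had median control levels of 40.2, 11.2 and 2.31 CPM, and atRA medians of 15.4, 8.03 and 2.09 CPM. Ranks 4 to 7 were 4 of the 9 and had near-parallel counts, so these medians lean on them. The rank 20 member went from 11.1, 14.6 and 8.49 CPM in the 80% epiboly controls to 1, 2 and 2 counts at 12 somites. By summed counts per depth the level was 592 times lower, with an exact 95% counting interval of 253 to 1824. Its atRA libraries held 9, 9 and 7 counts at 12 somites, all above the controls, at a level too low to be tested. The rank 22 member went from 22.7, 22.2 and 22 CPM to 0.148, 0.137 and 0.114 CPM. The rank 29 member held 42.7, 38.7 and 39.3 CPM, then 2.23, 1.99 and 1.7 CPM, and 1, 2 and 3 counts at 24 hpf. The last step was 69.5 times lower, with an interval of 31.7 to 190. These intervals cover counting error only, since reads are not independent molecules.

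Other members that fell at both steps stayed well above the floor. The rank 4 control libraries held 50.2, 44.7 and 50.7 CPM at 80% epiboly, 12.7, 13.6 and 13.9 CPM at 12 somites, and 2.71, 2.84 and 2.5 CPM at 24 hpf. Each step was larger than the replicate spread, by -2.18 on the log2 scale (edgeR, SE 0.07, adjusted p = 3.51e-12) and -2.32 (edgeR, SE 0.14, adjusted p = 1.3e-05). With atRA it held 14.4, 16 and 16.9 CPM at 80% epiboly, above the 12 somites controls in every library. Rank 5 shared its reads, and ranks 6 and 7 shared theirs with each other.

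**Figure D4:**
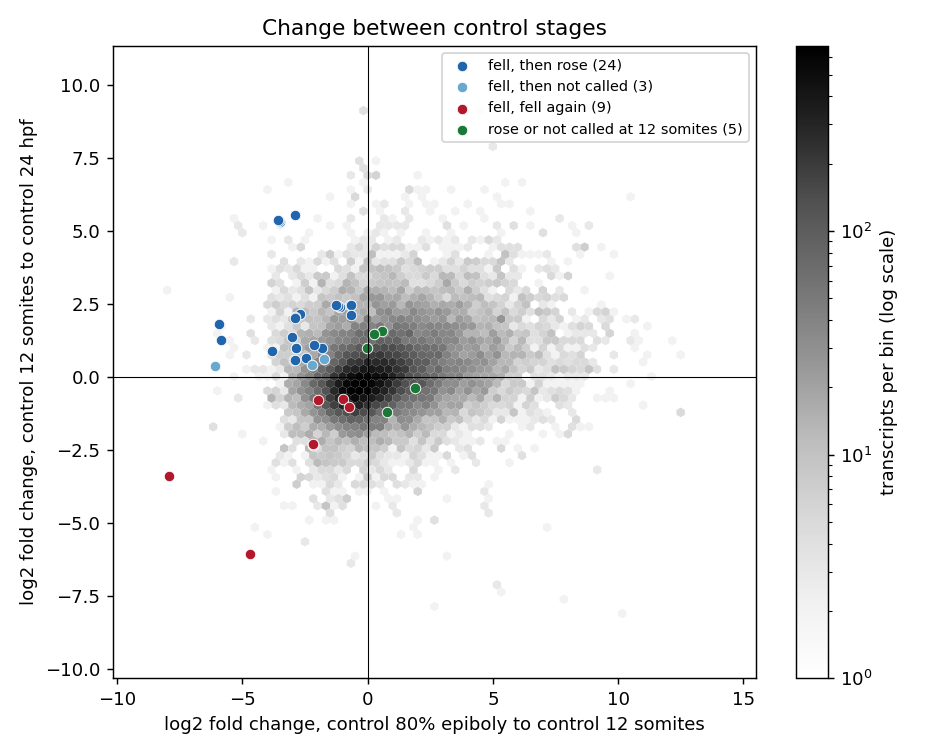
Log2 fold change in controls from 12 somites to 24 hpf against that from 80% epiboly to 12 somites, with all transcripts tested in both as grey bins and 41 members as points coloured by their calls. The 24 members in dark blue lie upper left, called lower at 12 somites and higher again at 24 hpf, as were 6.28% of all transcripts. The 3 in light blue also lie upper left, but their second step was not called. The 5 members too low to test at the second step are not drawn.

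Members that did not fall at 12 somites were 5 of 46. In ENSDART00000080808.4 the control mean went from 2.05 ± 0.113 to 9.43 ± 0.379 CPM (SD, n = 3). It rose by 1.88 on the log2 scale with TMM scaling (edgeR, SE 0.09, adjusted p = 2.04e-10), and by 2.20 with raw library sums, as in the CPM. It then fell by 0.37 (edgeR, SE 0.1, adjusted p = 0.0193), a call lost without control replicate 2 or 3 of 12 somites or control replicate 1 of 24 hpf. ENSDART00000126676.1 went from 2.11 ± 0.139 to 4.54 ± 0.4 CPM. It rose by 0.78 with TMM scaling (edgeR, SE 0.11, adjusted p = 1.41e-05), and by 1.10 with raw library sums. It then fell by 1.18 (edgeR, SE 0.15, adjusted p = 0.000416). The rank 3 member rose at both steps, from a control mean of 3.01 to 5.61 and 17.2 CPM, although its 24 hpf control libraries of 18.2, 10.3 and 23.3 CPM spread widely. Its first rise (adjusted p = 0.0133, edgeR) was lost without control replicate 1 of 80% epiboly (adjusted p = 0.062). The rank 8 and rank 14 members were not called at 12 somites and rose at 24 hpf. The rank 8 libraries had the same order as those of rank 3 among the 24 hpf controls, with 10.8, 5.13 and 14.8 CPM.

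Some members were uneven between replicates in the same libraries. The rank 12 member held 1.47, 1.48 and 0.571 CPM in the atRA libraries of 80% epiboly, rank 24 held 1.4, 1.61 and 0.683 CPM and rank 28 held 1.04, 1.31 and 0.509 CPM. In all of them atRA replicate 3 was lowest, and all 3 fell and rose again in controls. The rank 35, 42 and 44 members shared another unevenness, with control replicate 2 highest of the 80% epiboly controls and lowest of the 24 hpf controls. Rank 35 held 4.07, 5.55 and 4.33 CPM at 80% epiboly and 14.5, 12.1 and 16.1 CPM at 24 hpf. Whether such members belong to 1 gene cannot be read from the IDs. The median coefficient of variation of the members was 12.1% in the 80% epiboly controls and 14.5% with atRA, against 9.91% and 9.12% over transcripts with at least 180 counts.

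For the 70 transcripts lowered at 80% epiboly but outside a later limit, the control changes are given side by side with those of the members. From 80% epiboly to 12 somites 61 of 70 fell and 6 rose, with a median log2 fold change of -2.01, where 41 of the 46 members and 50.7% of transcripts present at 80% epiboly fell. From 12 somites to 24 hpf 68 of the 70 were tested, and 24 fell and 26 rose, with a median of 0.10. Of the 46 members 41 were tested, with 11 falls and 27 rises and a median of 0.99. Among transcripts present at 80% epiboly, 34.1% fell and 20.5% rose. Whether the sets differ was not tested, and how many of the 70 fell and then rose was not counted.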

How the data were processed

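Per the submitters' processing notes, STAR and HTSeq were used and the builds GRCz10 and danRer10 are named, with no versions or roles. The annotation release, strand setting and filters are not given in the sources used here. The authors deposited raw counts per transcript ID, 1 file per library, with 58549 IDs and 5 summary lines. These lines were not counted as transcripts. They took 16.9 to 18.9% (ambiguous), 3.1 to 6.35% (no feature) and 7.12 to 9.38% (not unique) of transcript counts and summary lines together. The low quality line equalled the not unique line and was left out of that total. At 24 hpf each of these shares lay apart between groups, with no feature at 5.6 to 6.35% in controls and 3.83 to 4.29% with atRA. The 12 somites controls held 3.96 to 4.13%. The part of these shares in the differences was not tested. How reads shared by isoforms, gene copies or antisense genes were assigned is not stated, so each such transcript is uncertain.

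Groups came from the sample titles. CPM for the rule and the levels used summed transcript counts. Tests used edgeR 4.0.16 in R 4.3.3: filterByExpr, TMM scaling, glmQLFit and glmQLFTest over all transcripts kept, Benjamini-Hochberg adjustment over all of them, called at an adjusted p under 0.05, and members read out of that table. The SE is the absolute log2 fold change over the square root of F. Each fit held only the groups compared. The fit was also run on simulated counts with known changes, drawn with the same spread between replicates for all transcripts. That says little about low or uneven transcripts, and nothing is read from it here. Alternatives used other scalings, filters, thresholds, DESeq2 1.42.0, a replicate block and leaving out each library.

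Named IDs are the member with the lowest d, the one with the highest control CPM at 80% epiboly and the 2 with the largest rise between the first control stages. Members described by rank alone were chosen after their values were seen. The members, lists and tests were chosen with earlier results of these data known.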

Additional observations from a re-analysis of the deposited data

Results flagged for a closer look

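The atRA effect was compared between stages with an interaction term in edgeR. The rule chose members by the contrasts that make up this difference, so the values describe the members only. Between 80% epiboly and 12 somites it was called for 45 of 46 members, against 27.8% of all transcripts tested. It was more positive at 12 somites in 44 and more negative in 1. Between 80% epiboly and 24 hpf it was called for 40, all more positive at 24 hpf, against 13.3% in both directions. For the named transcripts, the log2 effect at 12 somites exceeded that at 80% epiboly by 2.24 in ENSDART00000076711.6, 1.14 in ENSDART00000146813.1, 1.85 in ENSDART00000080808.4 and 1.39 in ENSDART00000126676.1. At 24 hpf it exceeded that at 80% epiboly by 1.51 in ENSDART00000146813.1, 2.38 in ENSDART00000080808.4 and 1.69 in ENSDART00000126676.1. The value of ENSDART00000076711.6 at 12 somites rests on 2 to 12 counts per library. Exposure began at different times for these stages, which cannot be told apart from stage.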

How the results depend on the processing

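The number of members depended on the rule's settings: 93 with TMM library sizes, 96 with DESeq2 size factors, 125 with a pseudocount of 0.1 CPM, 140 with a d of -0.8 or less at 80% epiboly, 19 with a later limit of 0.25, 86 with a limit of 1, and 21 with at least 1 CPM at both later stages. A pseudocount of 1 CPM gave 37. All 46 were among the 93 and the 96, 36 were among the 125, and 28 were among the 37. Leaving out 1 library gave 45 to 58 members, and 29 of the 46 were chosen in every such case.

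The 41 falls and 27 rises between control stages stayed within 1.5 times under every alternative run. The 24 that fell and then rose became 14 when each step had to reach 1 on the log2 scale, an alternative added after seeing the data. That threshold also left 1 of the 20 calls at 12 somites. The single call at 24 hpf became 0 with raw library sums, no filter, at least 10 counts in every library, the replicate block, an adjusted p under 0.01 or a log2 fold change of at least 1, and 2 with the DESeq2 test.

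Leaving out each library gave 46 calls at 80% epiboly, 18 to 21 at 12 somites, 0 to 2 at 24 hpf, 40 to 45 and 33 to 41 for the interactions with 12 somites and 24 hpf, and 43 to 45 and 33 to 40 for the control stages. Falls at 12 somites in controls were 41 throughout, rises at 24 hpf 25 to 28, and falls then rises 22 to 25. The call at 24 hpf was kept or joined by another without control replicate 2 (2 calls) and lost without any one of the other libraries of that stage.

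Replicate numbers were not taken to pair the libraries, since not every correlation of same-numbered deviations was over 0.1. Between atRA and control they lay within -0.025 to 0.021 (80% epiboly), 0.0038 to 0.041 (12 somites) and -0.59 to 0.10 (24 hpf). Between control stages they were -0.051 to -0.00051 for the first step and 0.043, 0.259 and 0.163 for the second. With the replicate block the control stages gave 44 and 38 calls and the interactions 44 and 32. Raw library sums moved the median log2 change of all transcripts to 0.40 from 0.08 between the first control stages, to -0.11 and -0.20 for the interactions and to -0.10 at 24 hpf. Higher calls then made up 65.6% in place of 50.8% of all calls at 80% epiboly, 30.4% in place of 42.6% at 24 hpf, 30.2% and 25% in place of 44% and 47.4% for the interactions, and 64.2% in place of 52.6% for the first control step. For the control-stage changes of the 4 named IDs, 97 alternative values gave the same call and 7 lost it without a change of sign.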
